A study of Caenorhabditis elegans with 2 samples.

Results

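The regions described here were the 302 broad KLE-2 peaks of a peak list of 6218, chosen by their measured width alone (1500 bp or more from first to last base, on any of the 6 nuclear chromosomes). They made up 4.86% of all peaks and held 814 of the 4239.7 kb under peaks, 19.2%. The list came from chromatin immunoprecipitation and sequencing (ChIP-seq) in the nematode Caenorhabditis elegans. Animals of the strain fem-2(b245), genotype fem-2(b245)III, were hermaphrodites grown at 20 °C and labelled as young adults with a germline. The growth notes describe the collected animals as gravid. The series held 1 KLE-2 ChIP library and 1 input library of the same animals, and only the ChIP library's peaks were analysed here. The allele b245 is temperature-sensitive, and no other genotype or temperature was part of the series. Whole animals were ground, fixed with 1% formaldehyde for 10 minutes and sonicated, so a peak averages over germline, somatic and any embryonic nuclei. The ChIP used 5 µg of an affinity-purified rabbit polyclonal antibody.

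KLE-2 is the kleisin of condensin II, the subunit that closes the ring made by the complex's SMC proteins and holds its HEAT-repeat subunits. Condensin II compacts and resolves chromosomes in mitosis and meiosis, and in nematodes it is present on chromosomes of the germline and the soma. A related condensin, which shares an SMC protein with it, acts in dosage compensation on the X chromosomes of hermaphrodites. In ChIP-seq, a broad peak is a stretch in which enrichment stayed above the peak caller's threshold without a break. It can hold several closely spaced sites or an extended bound region, and a peak list does not distinguish them.

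Width chose the members, and the score comes from the same peak call, so both are given as description with no test. All values come from 1 list, with no replicate, and no p-value is given. Intervals are exact (Clopper-Pearson for shares, Poisson for densities, conditional binomial for ratios of densities), at 95%. They cover counting error only and treat peaks as independent, although many lay side by side. Reads per peak and library depth are unknown. The genome sequence and the genes under the peaks were not analysed here, so peaks are given by position on WS220.

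Broad peaks spanned a wide range of widths, with a median of 2196 bp (quartiles 1756 and 3039 bp), against 527 bp (422 and 672 bp) for the 5916 peaks under 1500 bp. There were 118 of 1500 to 2000 bp, 107 of 2000 to 3000 bp, 52 of 3000 to 5000 bp and 25 of 5000 bp or more. The width limit fell in a continuous distribution. The 5 peaks just inside it were 1500 to 1509 bp wide, with scores of 3100, 2443.99, 1302, 180.22 and 254.53 in order of width. The 5 just outside it were 1492 to 1495 bp wide, with scores of 3100, 1589.4, 279.59, 2136.6 and 1918.61. Members and non-members next to the limit thus covered much the same scores.

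The widest member lay on chromosome I (10207544 to 10219362, 11819 bp) and had a score of only 278.87. The next in width closed the list on the same chromosome (15060171 to 15071377, 11207 bp, score 3100), at the end that carries the ribosomal RNA gene array. Chromosome V followed with 9493 bp in its center (7915650 to 7925142, score 3100), and chromosome III with 7809 bp in its center (6566715 to 6574523, score 3100). The next 6 ran from 7292 to 6322 bp. They lay on I (10945876 to 10953167, score 1079.66), V (10605564 to 10612617, score 2800.28; 17119818 to 17126755, score 3100; 3434538 to 3441213, score 3100), III (2496579 to 2503322, score 3100) and X (2057653 to 2063974, score 3100). Of these 10, 7 were at the score ceiling and 3 were not.

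The score is the authors' value per peak, and 171 peaks shared exactly 3100, which acts as a ceiling. Broad peaks were mostly strong: 124 of 302 were at or above the ceiling, 41.1% (35.5 to 46.8%), against 57 of the 5916 narrower peaks, 0.963% (0.731 to 1.247%), and 2.91% of all peaks. Seen from the other side, 68.5% of the ceiling peaks were broad (124 of 181). The 57 narrower ones were 705 to 1495 bp wide, with a median of 1238 bp. The median score was 2210.3 for broad peaks and 213.94 for narrower ones. Only 4 broad peaks exceeded 3100, on chromosome IV (2828370 to 2830723, score 3212.27; 11913423 to 11915653, score 3108.15), III (1299709 to 1303241, score 3122.81) and II (13520404 to 13522522, score 3116.76).

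Past 1500 bp, the rank correlation of width and score was weak. Across all peaks the 2 rose together (Spearman's rho 0.835), as they did among the narrower peaks (0.831). Among the 302 broad peaks rho was 0.0969, and among the 178 under the ceiling it was -0.135. These are descriptions over peaks of 1 library, and the broad set holds many tied scores. It is also cut on width, and the set under the ceiling on score as well. Their rho values therefore cannot be set directly against that of all peaks. From 1500 to 2000 bp the median score was 1825 (quartiles 676 and 3100), from 2000 to 3000 bp 2286 (651 and 3100) and from 3000 to 5000 bp 2061 (509 and 3100). At 5000 bp or more it was 3100 (1602 and 3100). The share at the ceiling was 33.9% (25.4 to 43.2%) in the first of these classes, 43.0% (33.5 to 52.9%) and 42.3% (28.7 to 56.8%) in the middle ones, and 64.0% (42.5 to 82.0%) in the widest. In each class the scores ran from far below the list's upper quartile (578.865) up to the ceiling. The lowest were 51.46, 64.68, 104 and 278.87, in order of class width. Chromosome IV gave an example at almost equal width: a peak of 1500 bp (3670469 to 3671968) had a score of 3100, and one of 1508 bp (14212182 to 14213689) had 180.22.

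**Figure D1:**
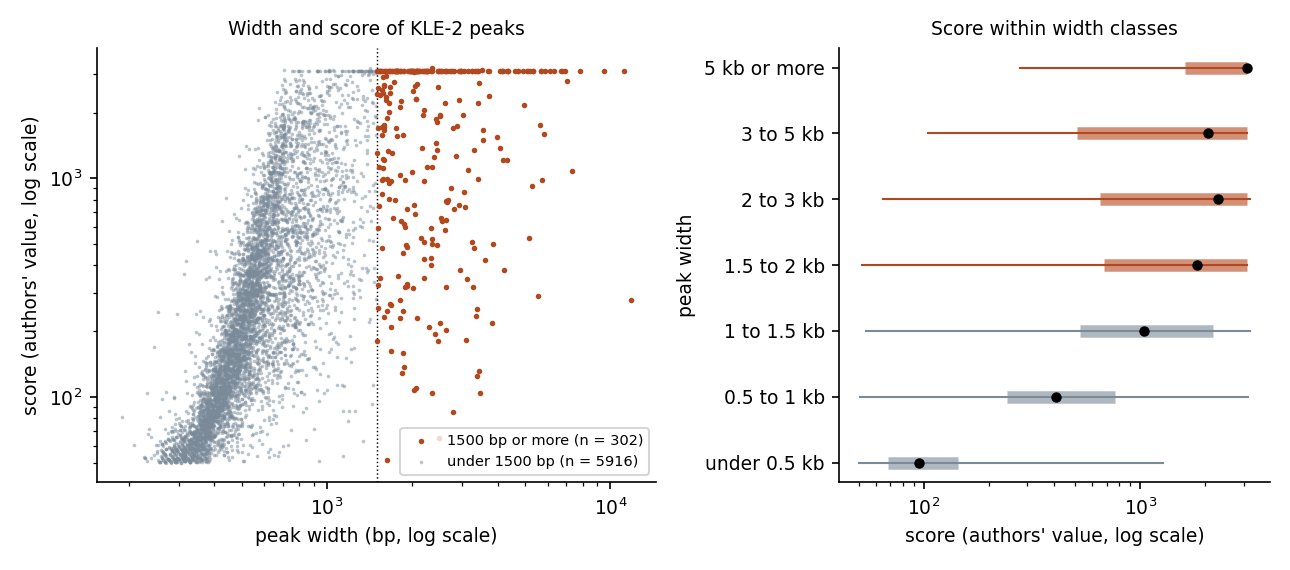
Left, width (bp) against the authors' score for every peak, both on log scales, with the 302 peaks of 1500 bp or more in red, the 5916 narrower peaks in grey and a dotted line at 1500 bp. Right, score by width class: the thin line runs from the lowest to the highest score, the thick bar between the quartiles and the dot marks the median. Spearman's rho of score and width was 0.831 among narrower peaks and 0.0969 among broad ones. The broad set is cut on width and holds many scores tied at the ceiling, so these values cannot be compared directly. Within each broad width class, scores ran from 278.87 or lower up to the ceiling.

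A small group of broad peaks was weak. In all, 22 of 302 had a score under the median of all peaks (229.53), 7.28% (4.62 to 10.8%), and 5 of them were also under the lower quartile (104.4). They were not narrow for their class, with widths from 1508 to 3827 bp, and none reached 5000 bp. X held 8 of the 22, while IV and V held 4 each, III 3, II 2 and I 1. This was 18.2% of the broad peaks on X (8.19 to 32.7%), against 5.43% on the autosomes (2.998 to 8.94%). The interval for X rests on 8 peaks, of which 5 belonged to 1 run of neighbouring peaks. Narrower peaks also scored lower on X, with a median of 148.87 against 221 on the autosomes. By position, 13 of the 22 were in arms and 9 in centers.

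The weakest was on X (4033970 to 4035593), 1624 bp wide with a score of 51.46, close to the lowest score in the list (50.08). On chromosome II a 2491-bp peak (3466452 to 3468942) had 64.68, and on V a 2779-bp peak (7988789 to 7991567) had 84.98. On IV a 3454-bp peak (6357690 to 6361143) had 104. These last 3 had their nearest neighbour of any width 13185, 7445 and 9298 bp away. For all broad peaks the median of this gap was 2.83 kb (quartiles 0.331 and 9.37 kb), so only the first of the 3 lay past the upper quartile. The other 6 of the 10 weakest were on X (1642416 to 1644770, score 104.06; 4054263 to 4056295, score 107.15; 4047474 to 4050852, score 124.85), III (7424593 to 7426647, score 110.32; 8862059 to 8863905, score 128.61) and I (4540345 to 4543788, score 130.9). Each of these 6 had another peak within 4 kb, the closest at 4 bp. Over the 22 weak broad peaks, the gap to the nearest peak ran from 4 bp to 43.99 kb. Another broad peak lay within 10 kb of 11 of the 22 (50%, 28.2 to 71.8%), against 29.1% of all broad peaks. These 11 were not independent: 5 lay in 1 run of neighbouring peaks on X, 2 in 1 on III and 1 in 1 on IV. Without these 3 runs the share over all broad peaks was 24.6%, and the share of the weak ones was not computed. A peak of any width lay within 10 kb of 17 of the 22 (77.3%), against 76.8% of all broad peaks. Within 2 kb these were 13 of the 22 (59.1%, 36.4 to 79.3%) and 44.0%.

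Every chromosome carried broad peaks, and X was not depleted of them to the degree that it was of narrow ones. X held 44 broad peaks, 2.48 per Mb (1.81 to 3.33), against 258 on the autosomes, 3.13 per Mb (2.76 to 3.53), a ratio of 0.794 (0.563 to 1.10). For peaks under 1500 bp the densities were 22.1 per Mb on X and 67.0 per Mb on the autosomes, a ratio of 0.330 (0.297 to 0.365), and the intervals of these ratios do not overlap. Thus 10.1% of the peaks on X were broad (7.45 to 13.3%), against 4.46% on the autosomes (3.94 to 5.03%). Broad peaks held 37.7% of the bases under peaks on X and 17.7% on the autosomes. Among broad peaks the median width was 2424 bp on X and 2178 bp on the autosomes. Their median score was 1223 on X (904 to 3100) and 2312 on the autosomes (1812 to 2778). Among peaks under 1500 bp the median score was likewise lower on X, 148.87 against 221.

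Across width classes, the ratio of X to autosomes in peaks per Mb was lowest in the middle of the distribution. It was 0.473 (0.413 to 0.541) under 500 bp, 0.216 (0.180 to 0.257) from 500 to 1000 bp and 0.284 (0.174 to 0.442) from 1000 to 1500 bp. It was 0.627 (0.331 to 1.10) from 1500 to 2000 bp, 0.880 (0.491 to 1.49) from 2000 to 3000 bp, 0.975 (0.418 to 2.03) from 3000 to 5000 bp and 0.887 (0.221 to 2.63) at 5000 bp or more. The upper classes rest on 14, 17, 9 and 4 peaks on X, and their intervals all reach past 1. The ratio depended on how peaks are cut. With a limit of 1000 bp it was 0.503 (0.383 to 0.650). When peaks up to 500 bp apart were first joined, 45 regions on X and 433 on the autosomes reached 1500 bp, and the ratio was 0.484 (0.348 to 0.659). After joining, 11.1% of regions on X (8.24 to 14.6%) and 8.49% on the autosomes (7.74 to 9.29%) were broad, and these intervals overlap, unlike those of the deposited peaks. Of those regions, 30 on X and 184 on the autosomes were single deposited peaks, and the rest were joined from several.

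The autosomes differed in another order than they do for narrow peaks. Chromosome IV had the most broad peaks, 71, or 4.06 per Mb (3.17 to 5.12), and chromosome III had 50, or 3.63 per Mb (2.69 to 4.79). Chromosome II held 47 (3.08 per Mb, 2.26 to 4.09) and V held 55 (2.63 per Mb, 1.98 to 3.42). Chromosome I held 35 (2.32 per Mb, 1.62 to 3.23), although it had 85.3 narrower peaks per Mb. Only 2.65% of the peaks on I were broad (1.85 to 3.67%), against 6.31% on IV (4.96 to 7.89%) and 5.32% on V (4.03 to 6.87%). The intervals of I and IV do not overlap in share, and in density they overlap slightly. At the ceiling were 36 of the 71 broad peaks on IV (50.7%, 38.6 to 62.8%), 46.8% on II, 41.8% on V, 37.1% on I, 36.4% on X and 28.0% on III (16.2 to 42.5%). The intervals of the highest and the lowest overlap, and the share over all broad peaks, 41.1%, lies in both.

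**Figure D2:**
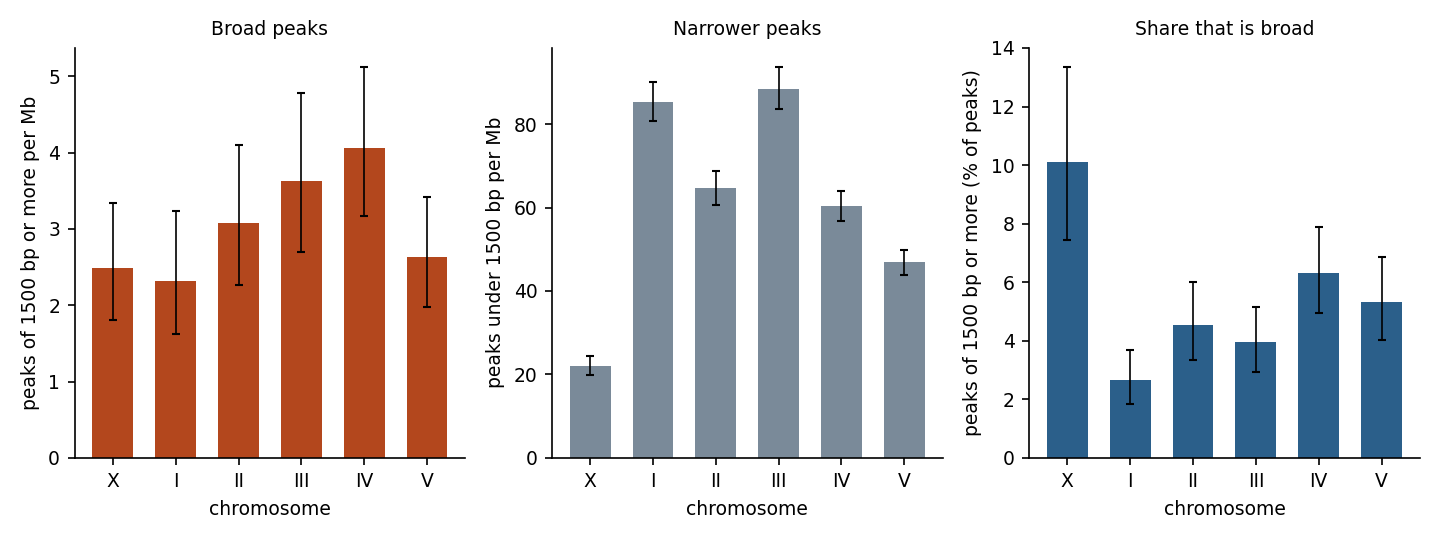
Peaks of 1500 bp or more per Mb, peaks under 1500 bp per Mb, and the share of peaks that are broad (%), by chromosome. Bars are values from the 1 peak list and error bars are exact 95% intervals (Poisson for densities, Clopper-Pearson for shares). X had 2.48 broad and 22.1 narrower peaks per Mb, and the highest share of broad peaks (10.1%), while chromosome I had the lowest (2.65%).

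Each chromosome was split into a left arm, a right arm and a center, each 33.33% of its span. On the autosomes of this nematode, repeats are more frequent and recombination is higher in the arms, and genes are denser in the centers. Broad peaks were denser in the arms than in the center on 6 of 6 chromosomes when both arms were pooled. So were peaks under 1500 bp, on 6 of 6. In all, 221 lay in arms and 81 in centers, 3.31 and 2.42 per Mb, a ratio of 1.36 (1.05 to 1.78). For peaks under 1500 bp the ratio was 1.12 (1.06 to 1.19), within the interval for broad ones. The ratio for broad peaks was 2.25 (1.03 to 5.60) on X, where 36 were in arms and 8 in the center. It was 1.69 on I, 1.46 on II, 1.33 on V, 1.11 on IV and 1.06 on III, and each of these 5 intervals includes 1. On the autosomes alone it was 1.27 (0.961 to 1.69). Narrower peaks had ratios of 1.83 (1.43 to 2.35) on X and 1.09 (1.03 to 1.15) on the autosomes, both within the intervals for broad ones. The direction did not hold for each arm, for either kind of peak. The left arm of IV held 3.09 broad peaks per Mb and the right arm of III 3.27, against 3.77 and 3.49 in their centers. For narrower peaks, the right arm of I held 75.6 per Mb and the right arm of IV 48.7, against 82.4 and 59.7 in their centers.

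The arm to center ratio was higher at the score ceiling than under it. Of the 124 broad peaks at the ceiling, 98 were in arms and 26 in centers, a ratio of densities of 1.88 (1.21 to 3.03). Of the 178 under the ceiling, 123 were in arms and 55 in centers, a ratio of 1.12 (0.807 to 1.57), and these intervals overlap. The right arm of chromosome IV held the most, with 31 broad peaks (5.32 per Mb, 3.61 to 7.55), although narrower peaks were sparser there (48.7 per Mb) than in the left arm (72.5 per Mb) and the center (59.7 per Mb). Of its peaks, 9.84% were broad (6.79 to 13.7%), close to the 11.2% in the left arm of X (6.9998 to 16.8%) and the 9.70% in the right arm of X (5.64 to 15.3%). In the center of X the share was 8.70% (3.83 to 16.4%).

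**Figure D3:**
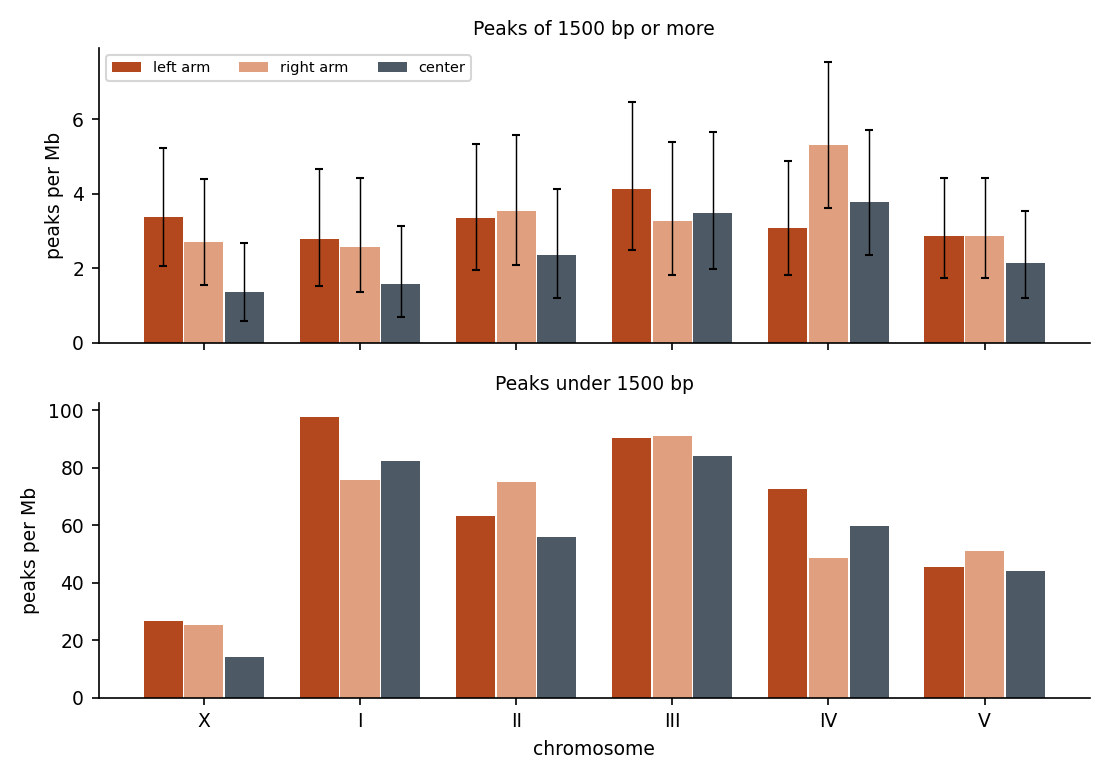
Peaks per Mb in the left arm, the right arm and the center of each chromosome, for peaks of 1500 bp or more (top, with exact Poisson 95% intervals) and for narrower peaks (bottom). Each section is 33.33% of the chromosome. The right arm of IV had the most broad peaks (5.32 per Mb) and the center of X the fewest (1.36 per Mb).

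In windows of 1 Mb, broad peaks numbered 2.53 ± 1.94 on X (SD, n = 17 windows) and 3.05 ± 2.13 on the autosomes (SD, n = 80 windows). Windows without a broad peak numbered 3 on X and 8 on the autosomes, 5 of them on V. On X the number of broad peaks in a window went with that of narrower ones (Spearman's rho 0.723 over 17 windows). On single autosomes rho was 0.417 on III (13 windows), 0.202 on II (15), 0.153 on IV (17), 0.122 on I (15) and -0.193 on V (20). Over the 80 autosomal windows together it was 0.0559, a value that also holds the differences in level between chromosomes. These windows share 1 library and neighbouring positions, so the values are descriptions. The 2 fullest windows differed in their narrower peaks and scores. The window from 15 to 16 Mb on IV held 10 broad peaks among just 38 narrower ones, and 8 of the 10 were at the ceiling. The window from 7 to 8 Mb on III held 9 broad peaks among 105 narrower ones, the most on that chromosome, and 0 of the 9 were at the ceiling. Of these 9, 7 lay in a single stretch of 26.9 kb (7405954 to 7432873).

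Broad peaks lay far apart as a rule. The median stretch between one and the next was 182 kb on X and 186 kb on the autosomes (all chromosomes, quartiles 57.7 and 420 kb). The longest stretch without one was 4.07 Mb on V (10612618 to 14685420), which still held 207 narrower peaks, 50.8 per Mb. On X it was 1.93 Mb (7079253 to 9007053), with 29 narrower peaks, 15.0 per Mb. On I, 1.95 Mb (7869839 to 9819703) held 163 narrower peaks and no broad one. Narrow peaks were thus common across the stretches on V and I that lacked broad ones.

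Against this wide spacing, some broad peaks adjoined others. Another broad peak lay within 10 kb of 88 of 302 broad peaks, 29.1% (24.1 to 34.6%), and of 420 of 5916 narrower peaks, 7.10% (6.46 to 7.78%). The nearest peak of any width was itself broad for 18.2% of broad peaks (14.0 to 23.0%) and for 3.803% of narrower ones (3.33 to 4.32%). Taking gaps up to 10 kb as joining, 214 broad peaks stood alone and 88 formed 35 runs, 26 of 2 peaks, 6 of 3, 1 of 4 and 2 of 7.

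For neighbours of any width, X and the autosomes differed. Over all chromosomes, 133 of 302 broad peaks had another peak within 2 kb, 44.0% (38.4 to 49.8%), against 44.6% of narrower peaks (43.3 to 45.8%) and 44.5% of all. On X the shares were 40.9% of broad (26.3 to 56.8%) and 18.7% of narrower peaks (14.9 to 22.9%). The share of broad peaks on X rests on 18 peaks, of which 7 lay in a single stretch of 30.3 kb (4025956 to 4056295). On the autosomes the shares were 44.6% of broad (38.4 to 50.9%) and 46.4% of narrower peaks (45.1 to 47.7%). Within 100 bp, broad peaks had a neighbour more often on both, with 20.5% of broad (9.80 to 35.3%) and 6.14% of narrower peaks (3.97 to 8.996%) on X. On the autosomes these shares were 12.8% (8.97 to 17.5%) and 6.21% (5.59 to 6.88%). No peak lay within 20 kb of 29.5% of broad (16.8 to 45.2%) and 32.7% of narrower peaks (28.1 to 37.6%) on X. On the autosomes this held for 11.6% of broad (7.98 to 16.2%) and 5.81% of narrower peaks (5.21 to 6.46%).

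In the flanks, pooled over all chromosomes, the density of other peaks fell with distance. In the first 0.5 kb beyond an edge there were 358 other peaks per Mb around broad peaks and 224 around narrower ones. From 0.5 to 1 kb the values were 149 and 154, and from 1 to 2 kb they were 116 and 138. From 2 to 5 kb they were 107 and 115, from 5 to 10 kb 93.5 and 90.8, from 10 to 20 kb 74.8 and 79.5, and from 20 to 50 kb 68.3 and 74.6 peaks per Mb. Beyond the first 0.5 kb, the values around broad peaks were lower in 5 of 6 bins and slightly higher from 5 to 10 kb. The pooled values mix chromosomes. X held 14.6% of broad and 6.61% of narrower peaks, and had 24.6 peaks per Mb of any width against 70.1 on the autosomes. The flanks were not split by chromosome, so the part of this mix in the differences was not tested.

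Spacing went with score among broad peaks. Of the 124 at the ceiling, 28.2% had another peak within 2 kb (20.5 to 37.0%), against 55.1% of the 178 under it (47.4 to 62.5%). The median gap to the nearest peak was 5.76 kb at the ceiling and 1.21 kb under it. Another broad peak lay within 10 kb of 20.2% (13.5 to 28.3%) at the ceiling and of 35.4% (28.4 to 42.9%) under it. These intervals touch, and the runs of 7, 7 and 4 broad peaks on X, III and IV all count under the ceiling. The share under the ceiling without these 3 runs was not computed. Spacing also differed by width. Another peak lay within 2 kb of 54.2% of the 118 broad peaks of 1500 to 2000 bp and 38.3% of the 107 of 2000 to 3000 bp. For the 52 of 3000 to 5000 bp it was 44.2%, and for the 25 of 5000 bp or more 20.0%. The parts of score and width were not separated. Score, width and gaps come from the same peak call, so this is a description. In 9 cases 2 broad peaks were separated by fewer than 100 bp, and none of these 9 pairs included a ceiling peak. The limit matters: on I, a ceiling peak (10204028 to 10207442) lay 101 bp from the widest peak of the list, and 6 broad ceiling peaks had another broad peak within 500 bp. The closest pair was on I, where a 3444-bp peak (4540345 to 4543788, score 130.9) and a 4078-bp peak (4543793 to 4547870, score 1380.45) lay 4 bp apart. On V a 2924-bp peak (9428386 to 9431309, score 759.09) and a 4180-bp peak (9431316 to 9435495, score 1213.65) lay 6 bp apart.

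**Figure D4:**
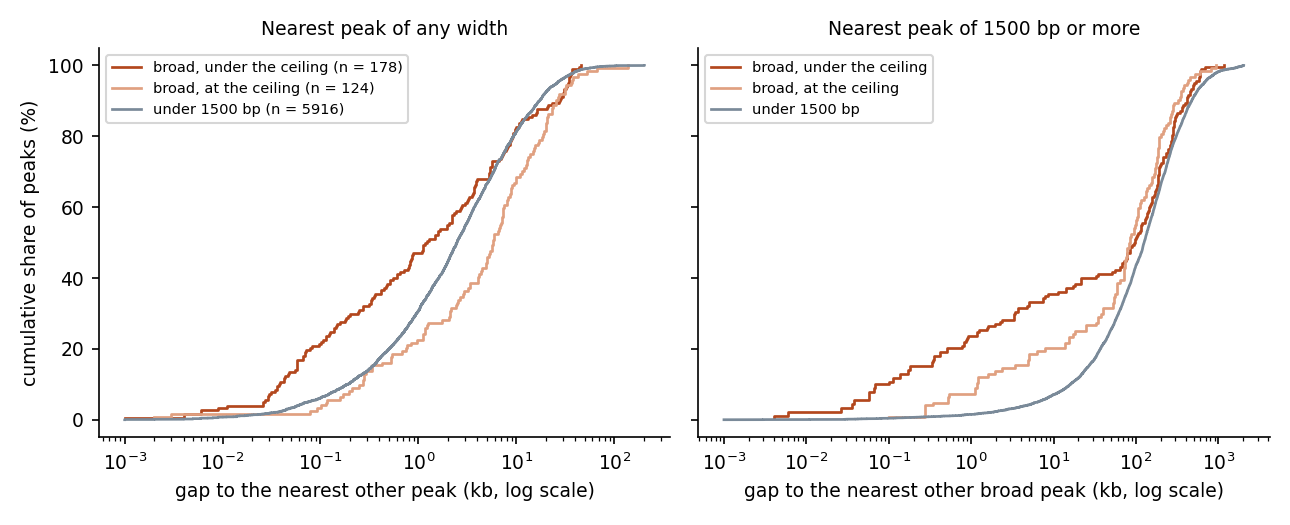
Cumulative share of peaks (%) by the gap in kb (log scale) to the nearest other peak of any width (left) and to the nearest other broad peak (right), for broad peaks under the score ceiling, broad peaks at the ceiling and peaks under 1500 bp. Within 2 kb, 28.2% of broad peaks at the ceiling and 55.1% of those under it had a neighbour of any width. Another broad peak lay within 10 kb of 20.2% of broad peaks at the ceiling, 35.4% of those under it and 7.10% of narrower peaks. The runs of 7, 7 and 4 broad peaks on X, III and IV all count under the ceiling.

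The 3 longest runs by number held no ceiling peak. On X, 7 broad peaks and 2 narrower ones spanned 30.3 kb in the left arm (4025956 to 4056295). Their scores, from left to right, were 1355.98, 51.46, 233.62, 193.31, 124.85, 179.86 and 107.15, so the first was well above the other 6. Beyond the right end, the next peak was 88672 bp away. On III, 7 broad and 7 narrower peaks spanned 26.9 kb in the center (7405954 to 7432873), with broad scores of 514.03, 278.31, 291.02, 319.1, 110.32, 511.71 and 158.39. The widest of them spanned 5566 bp (7415538 to 7421103). On IV, 4 broad and 4 narrower peaks spanned 18.2 kb in the center (6710756 to 6728948), with broad scores of 480.45, 161.89, 348.39 and 320.63. These 3 runs held 8 of the 22 weak broad peaks. Without them, 4.93% of broad peaks were under the median score (2.72 to 8.13%), and the ratio of X to autosomes in density was 0.698 (0.480 to 0.989).

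**Figure D5:**
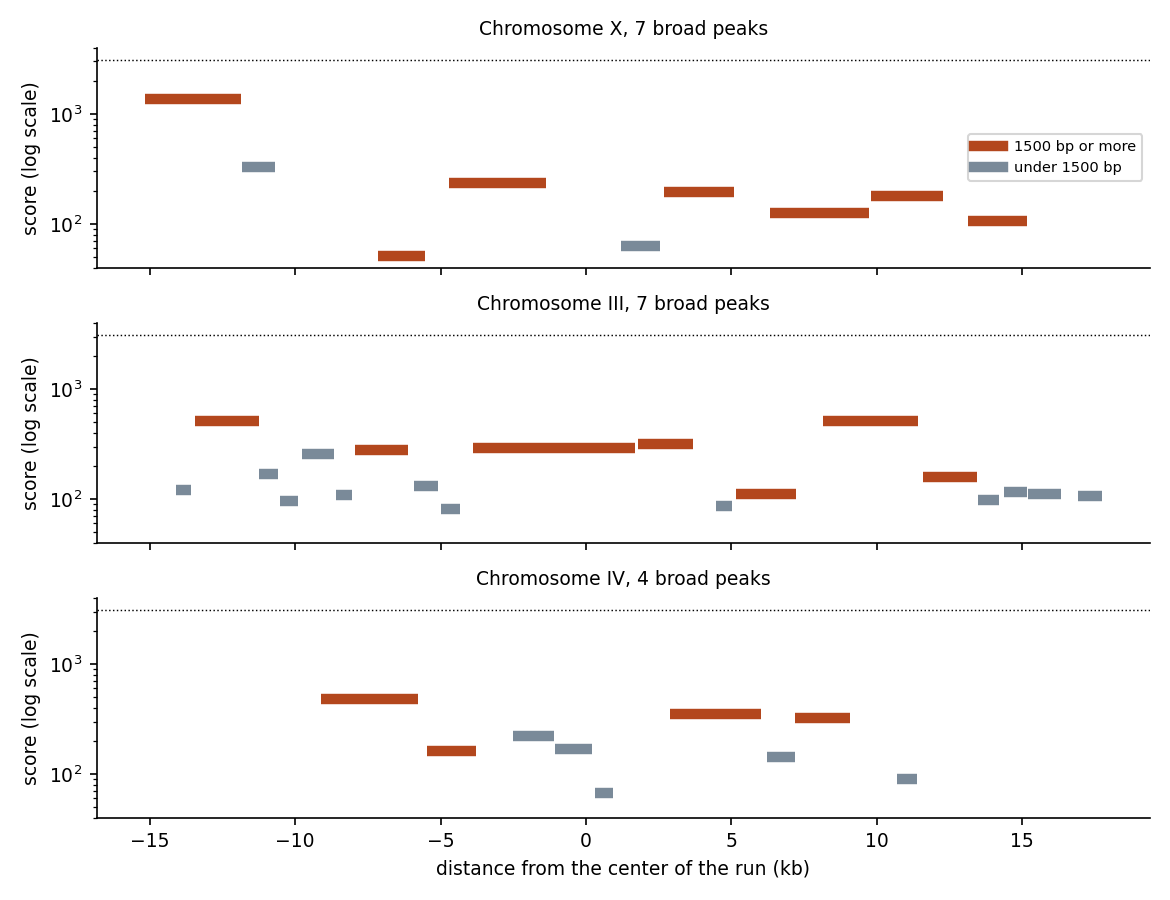
The 3 runs with the most broad peaks, on X, III and IV, with each peak drawn to scale as a line at its score (log scale) against the distance in kb from the center of the run. Broad peaks are red, narrower ones grey, and the dotted line is the score ceiling of 3100. Gaps within the runs were short, and each broad peak lay below the ceiling, the highest at 1355.98 on X.

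Other runs were of strong peaks. On IV, 3 ceiling peaks spanned 7.12 kb of the left arm (4920564 to 4927678) with no narrower peak between them. On II, 3 broad peaks spanned 18.9 kb of the left arm (1967353 to 1986252), 2 of them at the ceiling and 1 at 2051.08. On III, 3 spanned 14.1 kb of the left arm (2100726 to 2114803), with scores between 1127.07 and 2908.57. The remaining runs of 3 had lower scores, from 182.5 to 499.59 on IV (8572564 to 8582029), from 359.31 to 584.21 on II (9812520 to 9820352) and from 329.38 to 981.21 on III (13586411 to 13597348). Of the 9 runs of 3 or more, 2 held ceiling peaks and 7 held none. This does not extend to runs of 2, many of which held ceiling peaks. Over all 35 runs, 25 of the 88 broad peaks were at the ceiling, against 124 of all 302 (41.1%).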

How the data were processed

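KLE-2 ChIP-seq peaks of 1 library were analysed; the input library has no values here. Per the submitters' processing notes, reads were aligned with BWA to ce10, the browser name of WS220. Peaks were called with MACS on WormBase WS220, per the file headers and columns. Not given in the sources used here are the MACS version, the threshold, the use of the input as control and any pooling. Scores are the authors' deposited values per peak, on a scale the file does not name, and were used only within this list. Read depth is unknown.

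Width was last base minus first base plus 1. Each peak was placed by its midpoint, chromosome span ended at the last peak, and gaps were counted between edges. The ceiling is the score most peaks shared. Peaks named are the 10 widest, the 10 weakest broad ones, those above the ceiling, those next to the width limit, and the longest runs and stretches; other positions were picked after their values were seen. The members and lists were chosen with earlier results of these data known. The ratios of X to autosomes and of arms to centers were tested on simulated lists of independently placed peaks. The peaks analysed here often lay side by side, so that test does not cover their intervals. Shares by spacing or score were not simulated. Computations used Python 3.11.15 with scipy 1.17.1, pandas 2.3.3 and numpy 2.4.6, and plots matplotlib 3.10.9.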

Additional observations from a re-analysis of the deposited data

How the results depend on the processing

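Of 56 alternatives, 31 stayed within the 95% interval of the reported value, 24 fell outside it and 1 changed sign; the cause was not tested beyond what the alternative itself changes. The ratio of X to autosomes in density of broad peaks was 0.503 with a limit of 1000 bp and 0.484 after joining peaks up to 500 bp apart, and stayed within its interval under the other 6 alternatives. The arm to center ratio stayed above 1 in all 10 it was given, from 1.10 at 3000 bp or more to 1.51 with runs counted once, but its interval included 1 in 4 of them: 2000 bp (0.962 to 1.89), 3000 bp (0.670 to 1.87), under the ceiling (0.807 to 1.57) and autosomes alone (0.961 to 1.69). The correlation of score and width among broad peaks changed sign under the ceiling (-0.135). With limits of 1000, 2000 and 3000 bp, the share of peaks that are broad was 14.9%, 6.90% and 2.99% on X and 10.4%, 2.66% and 1.11% on the autosomes, as the limit itself dictates, and 8.49% on the autosomes after joining. With the same limits, 50.2%, 37.5% and 36.4% of broad peaks had a neighbour within 2 kb, and 35.4% had one after joining. With distances of 1 and 5 kb these were 37.1% and 58.6%. A broad neighbour within 10 kb was found for 36.6% at 1000 bp, 22.1% at 3000 bp and 21.5% after joining. The median score was 1350.8 at 1000 bp, 2800.3 at 3000 bp and 1305 after joining, and the share at the ceiling was 24.9%, 49.4% and 27.6% in the same order. The alternatives that count runs once, leave out the 3 longest runs or use the autosomes alone were chosen after seeing the data. No paired analysis was possible because there is just 1 ChIP library and no value of the input library was used; for the same reason no replicate could be left out. Depth is unknown, so broad regions of weak enrichment may be listed as several narrow peaks or be missing.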

Other observations

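Of the 12 peaks that open or close a chromosome, the last on I was broad (11207 bp), against 4.86% of all peaks in the list. The other 11 were 304 to 1117 bp wide.

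Broad peaks also came as close pairs with unlike members. On I, the widest peak of the list (score 278.87) formed a run with a 3415-bp peak at the ceiling, and on III a run in the left arm (414210 to 428171) joined scores of 494.52 and 3100. On V, both members were at the ceiling in a run in the center (7912516 to 7925142) and in another in the right arm (17119818 to 17132239).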
